A study of Mus musculus with 104 samples.

Results

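Shores are the stretches of moderate CpG content that flank CpG-dense DNA, where methylation climbs from the low level of a CpG island to the high level of the surrounding genome. Here a shore was a fixed 1 kb tile of chromosomes 1 to 19 with 5 to 29 CpGs that lay within 2 tiles of a CpG-dense tile, one with 50 or more CpGs. A tile was kept where each of the 3 deposited methylation files held 20 or more read calls, a call being 1 read's methylated or unmethylated reading of 1 CpG. These criteria, which use CpG number, position and depth but no methylation level, gave 10846 shores of 258057 tiles, the others being 14105 CpG-dense tiles and 233106 other tiles. Before the minimum on calls there were 36784 shores, so 29.5% of them are described. The described ones are the deeper and, as given below, the less methylated.

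The study followed chromatin in mouse embryos around gastrulation and asked what changes on loss of Kmt2b, which encodes a histone H3 lysine 4 methyltransferase. The groups used here were heads of Kmt2b-/- (KO) embryos at embryonic day (E) 8.5 (2 samples), heads of wild-type (WT) embryos at E8.5 (2 samples) and epiblasts of Kmt2b-/- embryos at E6.5 (3 samples). Heads were cut off at the neck, and so hold every tissue above the cut. The series' other samples were not analysed here, apart from the RNA columns of these groups and of 2 further WT head libraries, the wild-type controls of the study's Tet1/2 knockouts, whose table was normalized separately. Each methylation file pools the samples of its group, so no value below has a replicate error, and every test compares 1 pooled file with another and not the conditions. Between KO heads and KO epiblasts, stage and tissue change together and cannot be told apart.

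Methylation of the cytosine in CpG is written by Dnmt3a and Dnmt3b, copied at replication by Dnmt1 and oxidized by the Tet enzymes. Trimethylated H3 lysine 4, which Kmt2b and its relatives place at CpG-dense promoters, hinders binding of the Dnmt3 enzymes, and most such promoters carry little CpG methylation. Methylation is laid down over the genome as the epiblast forms, and shores are known as places where methylation differs between tissues more often than inside the islands themselves.

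The files held 42047812 calls for KO heads, 45262929 for WT heads and 29138288 for KO epiblasts, which is 1.97, 2.12 and 1.37 calls per CpG. Per shore the median number of calls was 45 in KO heads, 48 in WT heads and 31 in KO epiblasts. Kmt2b, listed under its older symbol Wbp7, had 0.133 FPKM (fragments per kilobase of transcript, scaled to library size, the authors' RNA unit) in KO heads, 0.600 FPKM in WT heads and 0.308 FPKM in KO epiblasts. The RNA columns also differed in cell type markers. Of the head markers, Pax6 had 4.59 FPKM in KO heads, 19.5 FPKM in WT heads and 0.069 FPKM in KO epiblasts, and Six3 had 3.10, 5.45 and 0.036 FPKM in the same order. Sox1 had 1.70 FPKM in KO heads and 3.49 FPKM in WT heads, En1 had 2.82 FPKM in KO heads and 5.83 FPKM in WT heads, and both were listed at 0 in KO epiblasts. Of 6 epiblast markers, among them Pou5f1 and Fgf5, the sum was 189 FPKM in KO heads, 150 FPKM in WT heads and 1564 FPKM in KO epiblasts. Single markers of the 6 differed more between heads than their sum. Pou5f1 had 16.9 FPKM in KO heads and 3.91 FPKM in WT heads, Nanog 8.27 and 1.59 FPKM, and Fgf5 6.94 and 1.70 FPKM. Otx2 alone was lower in KO heads, with 62.8 FPKM against 87.4 FPKM in WT heads. Of 4 blood markers the sum was 4.92 FPKM in KO heads, 97.8 FPKM in WT heads and 0 in KO epiblasts, and of 4 heart markers 76.3, 62.8 and 6.62 FPKM. The globin genes behind the blood sum of WT heads were nearly absent from the 2 further WT heads, where Hbb-bh1 was listed at 0 in both and Hba-x at 0.111 and 0 FPKM, so the blood sum differed among WT head libraries. Of the heart markers, Myl7 had 50.2 FPKM in KO heads and 14.4 and 103 FPKM in the 2 further WT heads. Actc1 had 17.9 FPKM in KO heads and 4.24 and 38.2 FPKM there, so both also differed among WT head libraries. The part of these differences in the methylation results below was not tested, and in bulk tissue a change in the mix of cells and a change within cells cannot be told apart.

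Promoters of 4 genes are shown, with every CpG in capitals, to let the reader see what lies in or beside a shore. They are RefSeq sequences of the GRCm38.p6 build, 300 bases long, from 250 before to 50 after the start of transcription. Tbr1 (chr2:61804203-61804502, plus strand) and Chrm3 (chr13:10360754-10361053, minus strand) are shown because these promoters lie inside a shore that differed between files. Fkbp9 (chr6:56831809-56832108, plus strand) is shown because its promoter crosses the border between such a shore and the dense tile, with 8 of its CpGs in the shore and 15 in the dense tile. Fgf4 (chr7:144861136-144861435, plus strand) is shown because its promoter lies in the dense tile beside such a shore. Chrm3 was chosen after its values were seen.
Tbr1: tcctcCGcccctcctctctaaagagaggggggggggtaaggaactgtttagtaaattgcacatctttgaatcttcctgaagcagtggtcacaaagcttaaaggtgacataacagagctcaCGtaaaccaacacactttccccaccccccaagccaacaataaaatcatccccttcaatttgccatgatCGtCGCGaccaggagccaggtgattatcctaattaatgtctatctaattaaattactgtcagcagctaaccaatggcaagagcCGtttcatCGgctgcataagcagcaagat
Chrm3: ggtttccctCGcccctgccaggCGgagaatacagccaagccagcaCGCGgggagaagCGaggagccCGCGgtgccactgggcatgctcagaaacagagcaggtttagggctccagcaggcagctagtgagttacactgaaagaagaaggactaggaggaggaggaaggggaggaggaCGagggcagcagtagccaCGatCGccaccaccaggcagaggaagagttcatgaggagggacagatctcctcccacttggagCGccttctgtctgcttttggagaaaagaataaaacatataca
Fkbp9: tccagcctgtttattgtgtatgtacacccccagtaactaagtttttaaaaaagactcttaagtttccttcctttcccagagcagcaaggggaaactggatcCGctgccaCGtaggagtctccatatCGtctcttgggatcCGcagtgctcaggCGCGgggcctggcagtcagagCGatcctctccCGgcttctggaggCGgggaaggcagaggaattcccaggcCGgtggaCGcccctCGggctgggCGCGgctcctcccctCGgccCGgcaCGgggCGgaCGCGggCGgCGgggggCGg
Fgf4: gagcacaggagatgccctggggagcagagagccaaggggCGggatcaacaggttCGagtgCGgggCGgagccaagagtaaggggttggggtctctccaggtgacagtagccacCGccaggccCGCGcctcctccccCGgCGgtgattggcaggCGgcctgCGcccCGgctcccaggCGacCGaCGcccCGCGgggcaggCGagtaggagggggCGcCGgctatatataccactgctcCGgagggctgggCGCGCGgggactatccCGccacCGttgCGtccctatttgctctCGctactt
The 300 bases hold 7 CpGs in Tbr1, 11 in Chrm3, 23 in Fkbp9 and 28 in Fgf4, against a median of 7 and quartiles of 3 and 21 over the 31396 promoters of chromosomes 1 to 19 in the table. The letters CG occur in 94.8% of those promoters. All 4 were placed in the files, whose build is mm9, by the spacing of their CpGs. Shore positions below are mm9 positions as the files give them.

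Shores covered the whole range of methylation. Over all calls their level was 46.1% in KO heads, 45.1% in WT heads and 48.1% in KO epiblasts, with 95% Wilson intervals that reach less than 0.2 points to either side and cover counting error only. The median shore had 52.5% in KO heads, 50% in WT heads and 54.1% in KO epiblasts. The 25938 shores left out by the minimum on calls were higher. Where they had a call, their medians were 75% in KO heads, 75% in WT heads and 71.4% in KO epiblasts. The values of the described shores are thus not those of all shores. In the CpG-dense tiles the medians were 1.78%, 1.41% and 4.95% in the same order, and in the other tiles 83.3%, 84.1% and 80%. Shores under 20% made up 26.7% of all in KO heads, 28.8% in WT heads and 22.8% in KO epiblasts. Those from 20% to 80% made up 49.0%, 46.7% and 56.5%, against 35.3%, 32.4% and 45.9% of the other tiles and 3.64%, 3.21% and 8.33% of the dense tiles. KO epiblasts, the file with the fewest calls, thus had the largest share of shores at intermediate levels of the 3 files. The part of its lower depth in that share was not tested.

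Shores were higher with distance from the dense tile. The 6803 shores directly beside a dense tile had a median of 32.5% in KO heads, 29.6% in WT heads and 37.1% in KO epiblasts. The 4043 shores 1 tile further out had medians of 78.1%, 78.9% and 75%. On 1545 sides of dense tiles both shores were measured, and the outer one was higher in 82.1% of these pairs in KO heads, 83.4% in WT heads and 79% in KO epiblasts. The median step between them was 25 points in KO heads, 28.4 points in WT heads and 22.8 points in KO epiblasts. A reverse step of 20 points or more was seen on 61 sides in KO heads, 47 in WT heads and 81 in KO epiblasts.

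**Figure D1:**
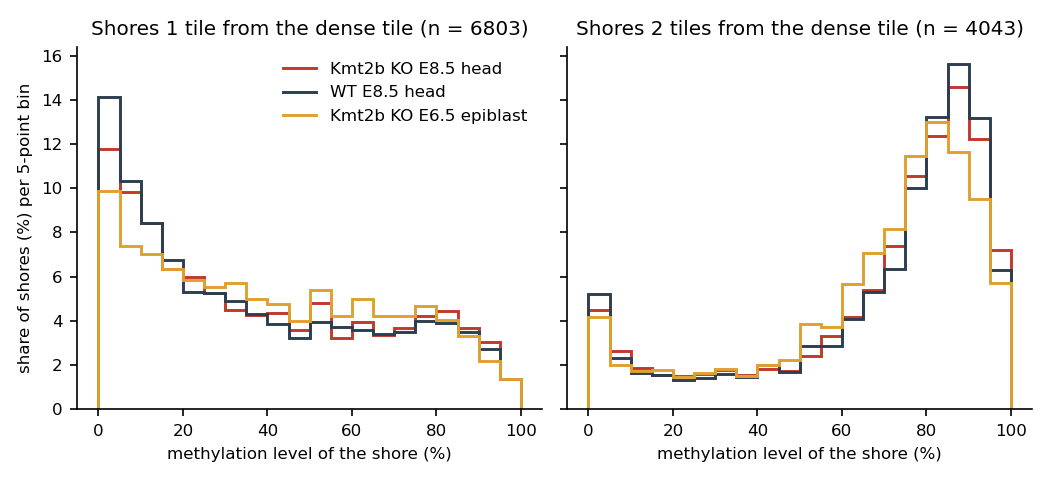
Distribution of the methylation level of shores, in 5-point bins, as a share of the shores 1 tile (left, 6803) and 2 tiles (right, 4043) from the CpG-dense tile, for the 3 pooled files. Beside the dense tile 36.3% of shores in KO heads, 39.6% in WT heads and 30.6% in KO epiblasts are under 20%, and 12.1%, 11.1% and 10.3% are over 80%. At 2 tiles 10.5%, 10.7% and 9.65% are under 20% and 44.9%, 47.1% and 38.1% over 80%.

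Directly beside the dense tile, the median level fell with CpG number in each file. Beside the dense tile, shores with 10 to 14 CpGs had medians of 57.5% in KO heads, 56.7% in WT heads and 58.9% in KO epiblasts, and shores with 25 to 29 CpGs had 14.4%, 12.8% and 20.5%. At 2 tiles the same classes had 79.3%, 80% and 76.2% against 68.8%, 70% and 66.0%. In heads the fall there did not run through all classes. Shores of 5 to 9 CpGs had 72.4% in KO heads and 76% in WT heads, and shores of 20 to 24 CpGs had 78.2% and 77.5%. The side on which the dense tile lay made little difference, with medians of 53.1% and 52.5% in KO heads, 51.0% and 51.2% in WT heads, and 54.1% and 54.6% in KO epiblasts, for dense tiles at lower and at higher coordinates. Just inside the upper bound, 357 shores of 29 CpGs had medians of 14.3%, 11.7% and 20.8% in KO heads, WT heads and KO epiblasts, and just outside it 345 tiles of 30 CpGs had 11.9%, 9.66% and 16.2%. Tiles 3 away from a dense tile, just beyond the reach, had 81.3%, 81.8% and 77.4%, against 78.1%, 78.9% and 75% at 2 tiles. Shores at the minimum of 20 calls had medians of 67.6%, 68.0% and 65%, and those at 19 calls, just under it, had 63.2% in each file.

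Read outward in 100-base steps from the edge of the dense tile, the level was 8.44% in KO heads, 7.25% in WT heads and 12.1% in KO epiblasts in the last 100 bases of the dense tile. In the first 100 bases of the shore it was 13.1%, 10.7% and 17.3%. In the fifth step of the shore it was 45.7% in KO heads, 43.3% in WT heads and 46.4% in KO epiblasts, and in the last step of the inner shore 64.3%, 64.2% and 63.0%. The files crossed on the way. KO heads lay 1.96 to 3.10 points above WT heads in each of the first 7 steps of the shore, by 0.52 to 1.19 points in the last 500 bases of the dense tile, and between 1.89 below and 0.97 above in the later steps. KO heads lay 2.91 to 4.46 points below KO epiblasts in the first 4 steps and 3.61 to 3.89 points below inside the dense tile, and above KO epiblasts in each of the last 7 steps, by 0.18 to 3.02 points. The edge of a tile is a point on a fixed grid and not the border of an island, and the outer 10 steps come from other shores than the inner 10.

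**Figure D2:**
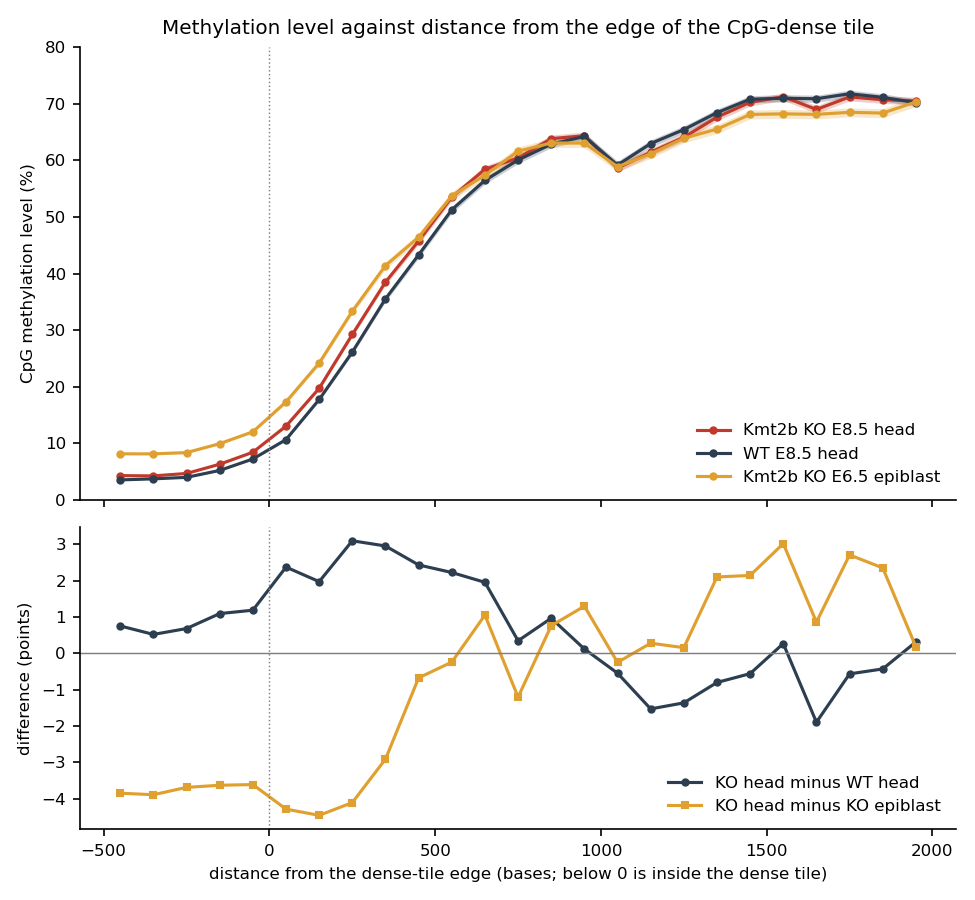
Methylation level over all calls (upper panel, with 95% Wilson bands) and its difference in percentage points (lower panel) in 100-base steps from the edge of the CpG-dense tile, over 10672 shores with dense tiles on 1 side and the 6639 dense-tile sides beside them. KO heads lie above WT heads by 1.96 to 3.10 points in the first 7 steps of the shore, and below KO epiblasts by 2.91 to 4.46 points in the first 4.

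Between KO heads and WT heads, few shores differed, and more of those were higher in KO heads than lower. Of 10846 shores, 89 (0.821%) were called higher in KO heads, by Fisher's exact test with Benjamini-Hochberg adjustment over all 258057 tiles at an adjusted p under 0.05 and a difference of at least 20 points. Another 37 (0.341%) were called lower. Over all tiles 0.439% were called higher and 0.352% lower, so the share of lower shores was near that of all tiles and the share of higher shores above it. CpG-dense tiles had a like share of higher calls, 0.737%, and 0.078% lower. The median difference, KO heads minus WT heads, was 0.80 points over shores, 0.37 over dense tiles and -0.38 over other tiles. Calls from 1 read are not independent, which makes these p-values too small. With CpGs at least 150 bases apart and a minimum of 10 calls, which leaves 2226 shores, 0 were called in either direction. That setting also leaves fewer calls per shore, so a difference of 20 points is harder to call. The parts of dependence and of fewer calls in this count were not tested.

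Most of the called shores lay directly beside the dense tile, as did 62.7% of all shores. Directly beside it 75 shores (1.10%) were called higher and 28 (0.412%) lower. The level there was 35.2% methylated calls in KO heads against 33.1% in WT heads, a difference of 2.05 points (95% interval 1.83 to 2.26, counting error only), or 1.30 points on a grid shifted by 500 bases. At 2 tiles 14 (0.346%) were called higher and 9 (0.223%) lower. The level there was 67.2% in KO heads against 67.9% in WT heads, a difference of -0.68 points (-0.97 to -0.38) that was -0.22 on the shifted grid and -1.11 on the first strand alone. The difference was above 0 in 55.9% of shores beside the dense tile and in 48.8% of those at 2 tiles. Split by their level in KO epiblasts, a file outside this comparison, the 6130 shores from 20% to 80% held 74 higher and 25 lower ones. The 2473 shores under 20% held 9 higher and 8 lower, and the 2243 over 80% held 6 and 4. On 15 of the 19 chromosomes more shores were called higher than lower.

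Of the 89 higher shores, 88 had a dense tile with enough calls, and 3 of these dense tiles were called higher and 0 lower, against 0.737% higher and 0.078% lower over all 14105 dense tiles. Their median levels were 2.24% in KO heads and 1.42% in WT heads, while the shores' own medians were 52.7% and 16.4%. The dense tiles beside the 37 lower shores had medians of 1.48% in KO heads and 1.49% in WT heads, and a tile at such a level cannot fall by 20 points. In KO epiblasts the 89 higher shores had a median of 44.1%, nearer to the KO head value in 63 and to the WT head value in 26. For the 37 lower ones the KO epiblast median was 50%, nearer to KO heads in 18 and to WT heads in 19. Both sets were selected on the difference between the heads. The share over all shores was not measured, so these counts are not read as a result.

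Of the 10 shores with the largest rises by the rule used for naming, 5 had a placed promoter in the shore or its dense tile and 5 had none. The shore upstream of Fkbp9 (chr6:56781000-56781999, 21 CpGs), whose product is a peptidyl-prolyl isomerase of the endoplasmic reticulum, had 54.9% in KO heads (51 calls), 5.41% in WT heads (74 calls) and 31.5% in KO epiblasts (54 calls), with an adjusted p of 7.1e-07 for KO against WT heads. Its dense tile had 1.58%, 0.58% and 1.27%, so the file with the high shore was not set apart there. The 8 CpGs of the printed Fkbp9 promoter that lie in the shore had 0 methylated of 10 calls in KO heads, 0 of 57 in WT heads and 0 of 26 in KO epiblasts. The shore's 13 other CpGs had 28 methylated of 41 calls in KO heads (68.3%), 4 of 17 in WT heads (23.5%) and 17 of 28 in KO epiblasts (60.7%). Most calls of WT heads thus fell on the unmethylated promoter part and most calls of KO heads outside it, and the difference outside it rests on few calls. A tile's level weights each CpG by its calls, and the part of such uneven coverage in the other called shores was not tested.

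Downstream of A130010J15Rik the shore (chr1:195000000-195000999, 25 CpGs) had 92.0% in KO heads (50 calls), 32.5% in WT heads (77 calls) and 58.6% in KO epiblasts (29 calls). This was the largest rise by the rule used for naming, and WT heads were the lowest of the 3 files. Upstream of Herpud1 (chr8:96909000-96909999, 27 CpGs), a gene of the endoplasmic reticulum stress response, the shore had 75.8% in KO heads (62 calls), 31.4% in WT heads (51 calls) and 78.8% in KO epiblasts (66 calls). Both KO files stood together there, with WT heads alone below them. By strand, KO heads minus WT heads was 62.3 and 14.4 points, and KO heads minus KO epiblasts was 7.25 and -23.4 points. A shore of chromosome 14 with no placed promoter (chr14:21481000-21481999) had an adjusted p of 7.9e-14 by Fisher's exact test, with 49.0% in KO heads (98 calls), 2.38% in WT heads (126 calls) and 38.5% in KO epiblasts (26 calls). Mrpl53, a mitochondrial ribosomal protein gene, had 75%, 26.8% and 39.4% in its upstream shore, and Rsph3a, named for the radial spoke of cilia, had 49.4%, 5.88% and 34.8% in its downstream shore, in KO heads, WT heads and KO epiblasts.

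Among the shores lower in KO heads, the one upstream of Zzz3, which encodes a subunit of a histone acetyltransferase complex, had 42.2% in KO heads (45 calls), 95.7% in WT heads (92 calls) and 96.8% in KO epiblasts (63 calls; chr3:152057000-152057999, 27 CpGs). It was called lower against both other files, with adjusted p-values of 1.4e-08 and 2.5e-08 by Fisher's exact test, which share the KO head file. The difference between KO and WT heads was -90.3 points on one strand and -6.49 points on the other. The shore of Alas1, the first enzyme of heme synthesis, and 4930500F10Rik, whose promoters lie on both strands of its dense tile, had 18.3% in KO heads, 53.8% in WT heads and 54.4% in KO epiblasts, and was also called against both. Upstream of Nova2, a splicing factor of neurons, the shore had 18.5% in KO heads (54 calls), 52.2% in WT heads (69 calls) and 41.7% in KO epiblasts (48 calls). Shores upstream of Sned1, Tmed10, Gm34620 and Tsc22d1 had 40.4%, 27.9%, 54.3% and 17.7% in KO heads, against 77.3%, 63.9%, 90% and 50.9% in WT heads. The other 3 of the 10 had no placed promoter.

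**Figure D3:**
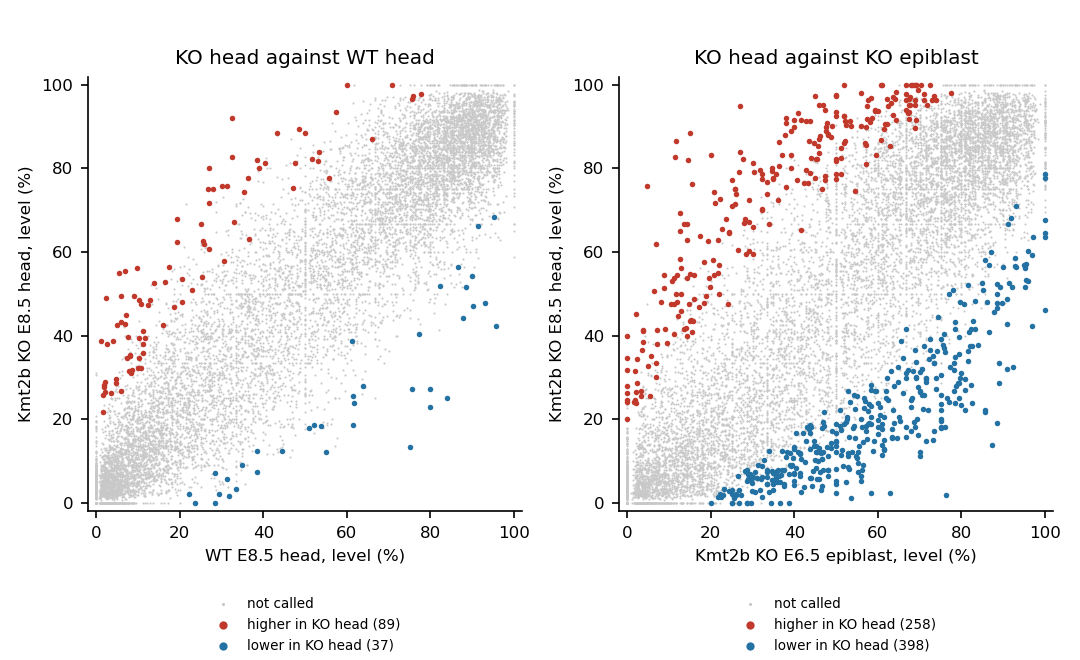
Methylation level of each of the 10846 shores in KO heads (vertical axes) against WT heads (left) and KO epiblasts (right), in percent. Red points were called higher in KO heads (89 left, 258 right), blue points lower (37 left, 398 right), and grey points were not called. Most shores lie near the diagonal in both panels.

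Between KO heads and KO epiblasts, 258 shores (2.38%) were called higher in KO heads and 398 (3.67%) lower, by the same test. Over all tiles the order was the reverse, with 3.09% called higher and 1.8% lower. The median difference, KO heads minus KO epiblasts, was 0 over shores, -2.17 points over dense tiles and 1.87 points over other tiles. Beside the dense tile 148 shores (2.18%) were called higher and 318 (4.67%) lower, with 35.2% in KO heads against 38.5% in KO epiblasts, a difference of -3.33 points (-3.57 to -3.08). At 2 tiles 110 (2.72%) were called higher and 80 (1.98%) lower, with 67.2% in KO heads against 65.8% in KO epiblasts, a difference of 1.39 points (1.07 to 1.72). With CpGs at least 150 bases apart, which leaves fewer calls per shore, 3 of 2226 shores were called higher and 4 lower. The differences in that setting were -1.21 points beside the dense tile and 0.47 points at 2 tiles. The difference at 2 tiles was 2.42 points with a minimum of 40 calls, 0.72 on the shifted grid and 0.88 on the second strand alone.

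Shores were also split by their level in WT heads, the file outside this comparison. Of 3129 shores under 20% in WT heads, 23 were called higher in KO heads and 186 lower, with a median difference of -2.59 points. Of 5060 from 20% to 80%, 149 were higher and 204 lower. Of 2657 over 80%, 86 were higher and 8 lower, with a median difference of 3.84 points. Split instead by KO epiblasts, a file of the comparison itself, the 2473 shores under 20% held 80 higher and 0 lower ones and the 2243 over 80% held 0 higher and 66 lower. The direction thus depended on which file made the split, and neither split is read as a result. WT heads were nearer to KO heads than to KO epiblasts in 336 of the 398 lower shores, with medians of 17.8% in KO heads, 22.8% in WT heads and 57.3% in KO epiblasts. The same held for 192 of the 258 higher ones, with medians of 78.9%, 66.7% and 35.7%. These shores were selected on the difference between KO heads and KO epiblasts, and KO epiblasts are the shallowest file. The share over all shores was not measured, so these counts are not read as a result either.

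Of the 396 dense tiles with enough calls beside lower shores, 19 were called lower and 2 higher, and of the 258 beside higher shores 7 were called higher and 6 lower. Over all dense tiles 2.08% were called lower and 0.723% higher. The dense-tile medians were 1.68% in KO heads and 5.36% in KO epiblasts beside lower shores, and 2.12% and 5.54% beside higher shores. Dense tiles thus lay lower in KO heads by a few points on both kinds of side.

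Tbr1 gave the case where the promoter itself lies in the shore (chr2:61642000-61642999, 25 CpGs). Tbr1 encodes a T-box transcription factor of cortical neurons. Its shore had 2.22% in KO heads (45 calls), 1.49% in WT heads (67 calls) and 58.3% in KO epiblasts (48 calls), with an adjusted p of 1.9e-07 for KO heads against KO epiblasts. The 7 CpGs in capitals in the printed Tbr1 promoter had 0 methylated of 20 calls in KO heads, 1 of 14 in WT heads and 16 of 19 in KO epiblasts, while the dense tile next to the shore had 0.72%, 0% and 6.52%. The low level of the heads thus covered the whole shore, promoter included. The shore of Chrm3 (chr13:10360000-10360999, 28 CpGs), a muscarinic acetylcholine receptor gene, had 29.5% in KO heads (61 calls), 4.71% in WT heads (85 calls) and 37.8% in KO epiblasts (37 calls) and was called higher in KO than in WT heads. Yet the 11 CpGs of its printed promoter had 1 methylated of 20 calls in KO heads, 0 of 44 in WT heads and 1 of 16 in KO epiblasts. The shore's 17 other CpGs had 17 methylated of 41 calls in KO heads, 4 of 41 in WT heads and 13 of 21 in KO epiblasts.

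Several further shores were low in both heads and high in KO epiblasts. The shore of Nusap1 and Oip5, both genes of chromosome segregation, had 1.16% in KO heads (86 calls), 2.70% in WT heads (111 calls) and 53.5% in KO epiblasts (114 calls). The shore beside Mmab and Mvk, genes of cobalamin and isoprenoid metabolism, had 11.3% in KO heads (133 calls), 15.5% in WT heads (155 calls) and 61.0% in KO epiblasts (123 calls). Their dense tiles had 1.13% and 2.69% in KO heads, 0.57% and 3.02% in WT heads, and 25.7% and 30.6% in KO epiblasts, so the KO epiblast stood apart inside the dense tile too. Upstream of Polg, the mitochondrial DNA polymerase gene, the shore had 12.2% in KO heads, 25.8% in WT heads and 70% in KO epiblasts. Downstream of Kcnj6, a potassium channel gene of neurons, it had 22.4%, 18.1% and 70.7% in the same order. Upstream of Sema5b, a semaphorin gene of axon guidance, KO heads stood alone, with 23.7% (59 calls) against 61.8% in WT heads (34 calls) and 78.4% in KO epiblasts (51 calls).

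Fgf4, a growth factor gene of the pluripotent epiblast, had a shore that was higher in KO heads. Upstream of it (chr7:152046000-152046999, 22 CpGs) the level was 62.9% in KO heads (97 calls), 44.5% in WT heads (110 calls) and 21.8% in KO epiblasts (78 calls), with an adjusted p of 8.5e-06 for KO heads against KO epiblasts. The difference of 18.3 points between KO and WT heads was not called, with an adjusted p of 0.24. The promoter printed above, in the dense tile, had 1 methylated of 140 calls in KO heads, 0 of 150 in WT heads and 1 of 78 in KO epiblasts. Its RNA was 0.66 FPKM in KO heads, 0.24 FPKM in WT heads and 9 FPKM in KO epiblasts.

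Other shores higher in KO heads than in KO epiblasts had WT heads in between or beside KO heads. Downstream of Mdm2, the ubiquitin ligase gene of the p53 pathway, the shore had 88.1% in KO heads (42 calls), 59.7% in WT heads (67 calls) and 37.7% in KO epiblasts (53 calls). Batf3, a transcription factor gene of dendritic cells, had 76.4%, 60.3% and 15.5% in its downstream shore. Upstream of Supt5, an elongation factor gene, the values were 77.8%, 59.2% and 35.0%, and upstream of Mta1, a subunit gene of the NuRD complex, 90.2%, 62.7% and 49.0%, in KO heads, WT heads and KO epiblasts. The largest of the named differences, 68.1 points on chromosome 7 (chr7:112913000-112913999), had 95.1% in KO heads (81 calls), 89.5% in WT heads (57 calls) and 26.9% in KO epiblasts (234 calls). The KO epiblast thus had more calls there than either head although its file is the smallest. By strand, the difference between KO heads and KO epiblasts was 1.02 points on one and 78.9 points on the other. A shore of chromosome 17 (chr17:83673000-83673999) had 45.2% in KO heads (42 calls), 26.4% in WT heads (53 calls) and 1.99% in KO epiblasts (351 calls). Over 20 calls per CpG in a file were found in 9 shores, of which 1 was called for KO heads against KO epiblasts and 0 for KO against WT heads.

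**Figure D4:**
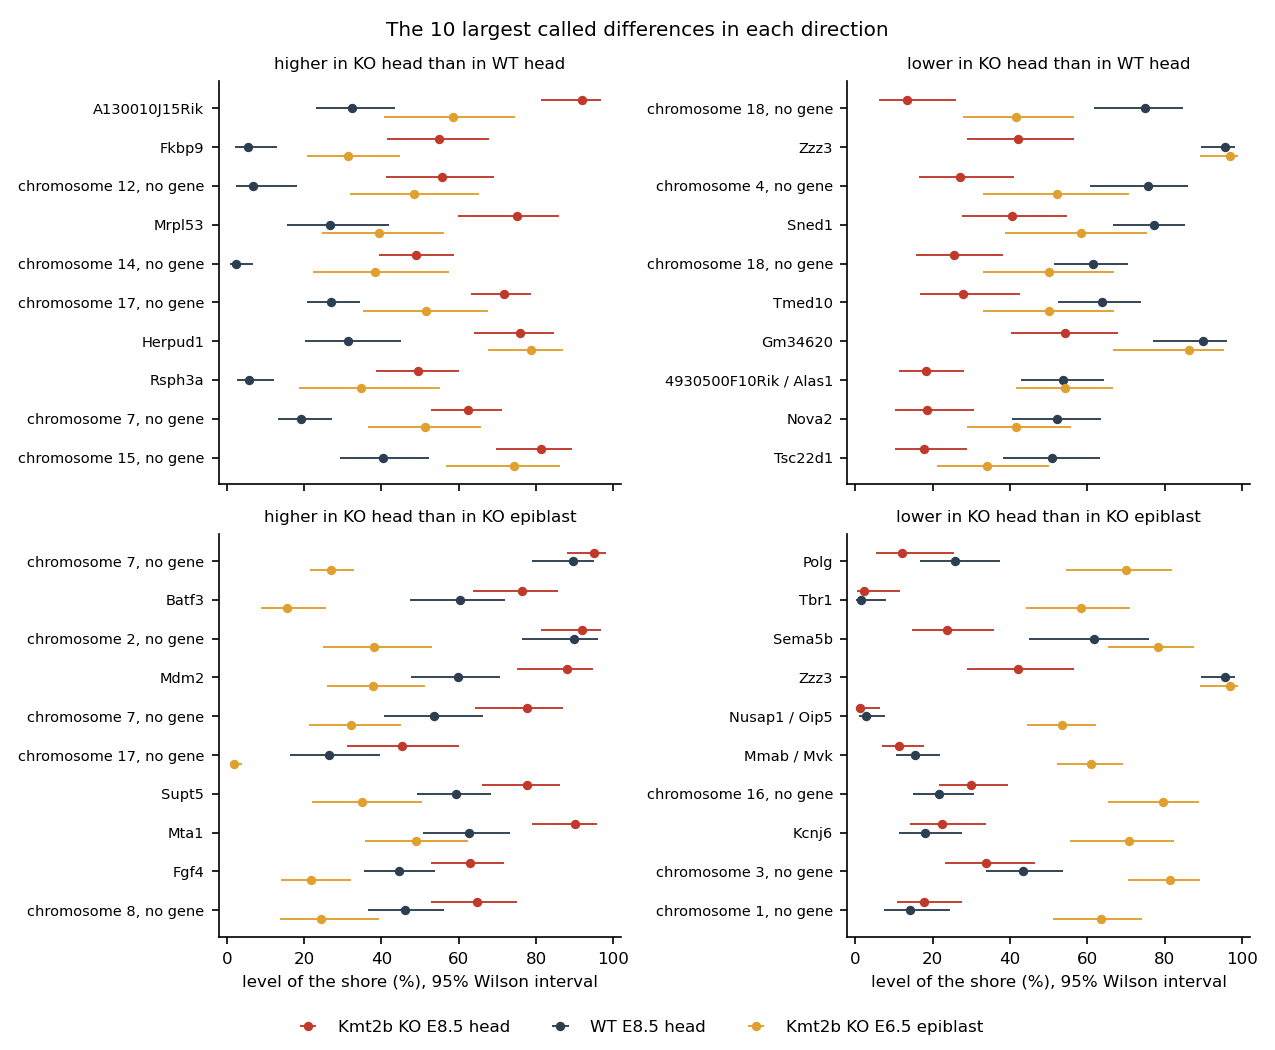
Methylation level with its 95% Wilson interval (counting error only) in the 3 pooled files, for 10 called shores in each direction of both comparisons. They have the largest differences among called shores with at least 40 calls in both files and the same direction on both strands. Rows are named by genes whose promoter lies in the shore or its dense tile. In the lower panels WT heads mostly lie nearer to KO heads than to KO epiblasts, with Zzz3 and Sema5b as exceptions among the lower shores, and Mdm2, Mta1 and 1 shore of chromosome 7 among the higher ones.

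Gene lists gave the following picture. Of 39 Hox genes, which set position along the body axis, 20 had a placed promoter. Only those could be given a shore, and 14 had shores, 24 in all. Their medians were 4.04% in KO heads, 3.58% in WT heads and 3.57% in KO epiblasts, and 23 of 24 were under 20% in each file. The exception was the shore downstream of Hoxd1, with 64.1% in KO heads (39 calls), 35.9% in WT heads (39 calls) and 65.2% in KO epiblasts (23 calls), a difference between heads that was not called. Shores of the brain patterning list, such as Lhx2, Emx2, Pax2 and Otx2, had medians of 1.76%, 2.59% and 2.20% over 18 shores. For comparison, the median over all shores was 52.5%, 50% and 54.1%. Of the 18, 17 were under 20% in KO heads, 17 in WT heads and 16 in KO epiblasts. Both Hox and brain patterning shores thus lay near 0 in KO epiblasts as well as in heads. The shore upstream of Wnt1, a signal of the midbrain border, was just over 20% in KO epiblasts, with 19.2% in KO heads (104 calls), 14.3% in WT heads (70 calls) and 21.6% in KO epiblasts (37 calls).

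Egr2, a transcription factor gene of the hindbrain, had the highest shore of the brain list in each file. Its downstream shore had 27.9% in KO heads (61 calls), 22.6% in WT heads (106 calls) and 63.9% in KO epiblasts (36 calls), and was called lower in KO heads than in KO epiblasts. Egr2 RNA was 5.38 FPKM in KO heads, 0.51 FPKM in WT heads and 0.04 FPKM in KO epiblasts, with 0.17 and 2.98 FPKM in the 2 other WT heads, so WT libraries alone spread over more than 2-fold.

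Of the 7 imprinted genes with shores, 9 shores in all with medians of 53.3% in KO heads, 50% in WT heads and 42.9% in KO epiblasts, 2 genes carried calls against KO epiblasts. These were 2 higher and 2 lower shores, where 2.38% of all shores were called higher and 3.67% lower. Both shores of Mest, expressed from the paternal allele, were called lower in KO heads. The upstream one had 37.5% in KO heads (40 calls), 41.5% in WT heads (53 calls) and 82.1% in KO epiblasts (28 calls), and the downstream one 53.3%, 61.7% and 95.5%. Mest RNA was 546 FPKM in KO heads, 1380 FPKM in WT heads and 59.0 FPKM in KO epiblasts. Both shores of Mcts2, a retrogene expressed from the paternal allele, were called higher, with 82.1% in KO heads (28 calls), 95.5% in WT heads (22 calls) and 14.6% in KO epiblasts (144 calls) upstream, and 71.4%, 50% and 25.8% downstream. The 144 calls over 10 CpGs in KO epiblasts were far above that file's median of 31 per shore. The deposited calls do not separate the parental alleles.

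Shores of pluripotency genes, 13 beside 6 genes, had medians of 13% in KO heads, 8.57% in WT heads and 4.44% in KO epiblasts. Of the 13, 10 were higher in KO heads than in WT heads, none of them by a called difference. Over all shores 53.3% were higher in KO heads, and shores of 1 gene are not separate observations. The shore downstream of Dnmt3b was called higher in KO heads than in KO epiblasts, with 23.8% in KO heads (42 calls), 7.23% in WT heads (83 calls) and 2.00% in KO epiblasts (50 calls). Dnmt3b RNA was 93.4 FPKM in KO heads, 55.2 FPKM in WT heads and 726 FPKM in KO epiblasts. Among 11 H3 lysine 4 and DNA methylation enzymes with 15 shores and medians of 31.0% in KO heads, 21.7% in WT heads and 40% in KO epiblasts, those of Tet2 and Kmt2c were called lower in KO heads than in KO epiblasts. The Tet2 shore had 0% in KO heads (57 calls), 1.79% in WT heads (56 calls) and 28.6% in KO epiblasts (42 calls). The Kmt2c shore had 13.3%, 18.9% and 40%.

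Streak and endoderm genes had 9 shores with medians of 6.82% in KO heads, 4.41% in WT heads and 8% in KO epiblasts, and 0 calls. Germline genes, many of which are known to be silenced by promoter methylation, had 8 shores with medians of 80.7%, 75.5% and 62.4% and 0 calls. The level was higher in KO than in WT heads in 2 of these shores and lower in 6, so the medians and the single shores differ in sign. Both shores of Ddx25 lay apart, with 14.6% and 8.16% in KO heads, 17.2% and 8.43% in WT heads, and 25% and 10% in KO epiblasts. The 42 shores of 27 cytosolic ribosomal protein genes had medians of 55.1%, 56.6% and 46.4%, and 1, downstream of Rpl27, was called higher in KO heads (34.5%, 84 calls) than in KO epiblasts (0%, 39 calls), with 14.3% in WT heads (63 calls). Between KO heads and WT heads, 0 shores of any of the 8 lists were called, where 0.821% and 0.341% of all shores were called higher and lower, so that a count of 0 in lists of this size is near the background. Against KO epiblasts, lists other than the imprinted one had 0 to 2 called shores each, where 2.38% of all shores were called higher and 3.67% lower. Counts this small are not read as a result about the lists. Magohb had no shore.

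**Figure D5:**
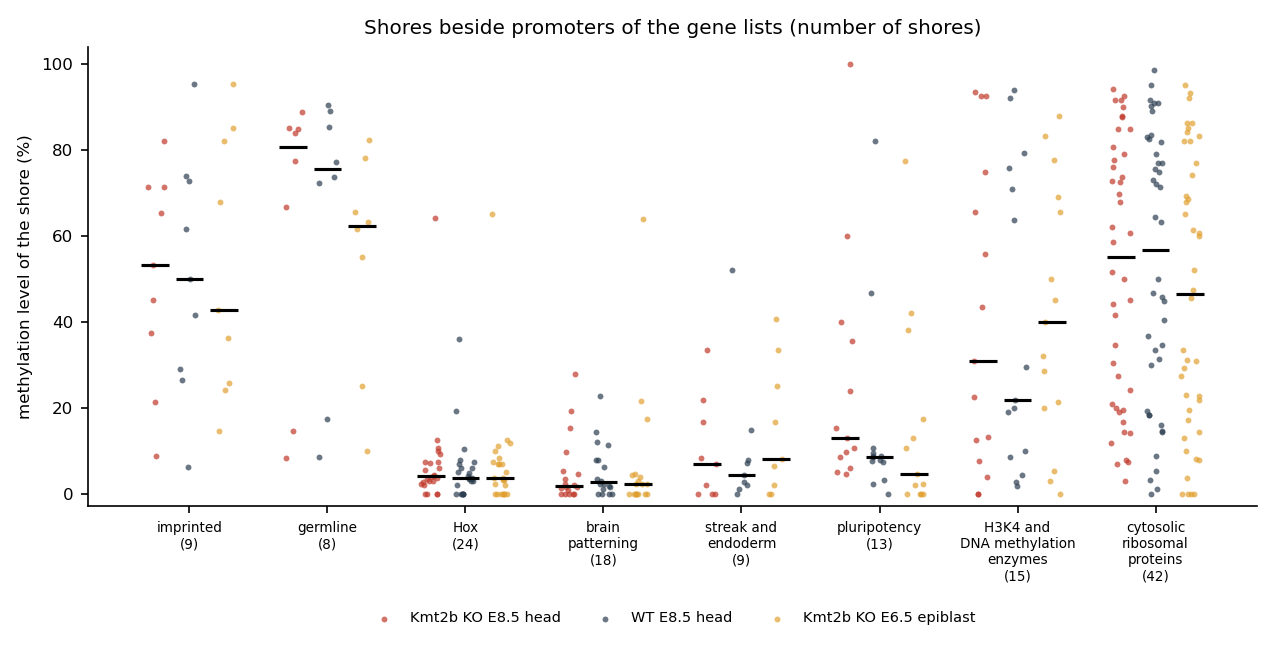
Methylation level of each shore beside a promoter of the 8 gene lists, in percent, in KO heads, WT heads and KO epiblasts from left to right. Black bars are medians and the number under each list counts its shores. Hox and brain patterning shores lie near 0 in all 3 files apart from a few such as Hoxd1 and Egr2, whereas 6 of 8 germline shores lie above 50% in each file.

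Promoters were placed for 14939 genes, of which 5170 had a shore, and 6531 shores had such a gene. The 359 shores that hold a promoter themselves, as for Tbr1 and Chrm3, had medians of 16.3% in KO heads, 14.3% in WT heads and 23.1% in KO epiblasts. Shores upstream of their gene had medians of 51.4% in KO heads, 48.8% in WT heads and 52.0% in KO epiblasts, and downstream ones 52.6%, 51.5% and 55.0%. Around 435 dense tiles with shores directly on both sides of 1 gene start, the downstream shore was the lower in 52.0% of cases in KO heads, 55.2% in WT heads and 54.5% in KO epiblasts. Level followed RNA mainly in the outer shores. Downstream and at 2 tiles, shores of genes under 1 FPKM in the same group had medians of 75% in KO heads, 76.7% in WT heads and 73.6% in KO epiblasts, and shores of genes at 10 FPKM or more had 85.3%, 87.0% and 81.8%. Directly beside the dense tile the same classes had 29.8%, 25% and 41.3% against 33.3%, 32.5% and 33.3%, so the order in KO epiblasts was the opposite of that in heads. These are descriptions over genes, which are not replicates.

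Of 63 genes beside shores higher in KO heads than in WT heads, 43 had at least 1 FPKM in either column, and 0 were at least 2-fold higher and 1 at least 2-fold lower on the log2(FPKM + 1) scale. Over all 10502 genes 2.42% were 2-fold higher and 2.73% lower, so the counts beside these shores were near the background. The 1 gene was 0610040J01Rik, with 0.27 FPKM in KO heads, 2.69 FPKM in WT heads and 3.39 and 3.69 FPKM in the 2 other WT heads, whose downstream shore had 67.2% in KO heads, 33.0% in WT heads and 79.3% in KO epiblasts. Of 16 such genes beside lower shores, 0 passed 2-fold in either direction. RNA has 1 merged column per group, so these are sizes with no error and no test.

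Against KO epiblasts, 178 genes beside shores lower in KO heads reached 1 FPKM, and 19 were 2-fold higher and 9 lower in KO heads. Of 146 beside higher shores, 5 were 2-fold higher and 14 lower. Over all 10799 genes 7.23% were higher and 7.37% lower. The genes named here were chosen after their values were seen. Beside lower shores were Lmo1, a LIM-domain regulator, with 17.9 FPKM in KO heads against 0.16 FPKM in KO epiblasts, and Gli3, a transcription factor of the hedgehog pathway, with 12.8 FPKM in KO heads against 1.81 FPKM in KO epiblasts. Their shores had 7.69% and 5.56% in KO heads against 56.3% and 45.8% in KO epiblasts. Beside higher shores were Sgk1, a serum-induced kinase gene, with 3.27 FPKM in KO heads against 73.8 FPKM in KO epiblasts, and Cnn2, a calponin gene that went the other way, with 39.5 FPKM in KO heads against 5.55 FPKM in KO epiblasts. Cnn2 also had an upstream shore with 62.7% in KO heads, 25.4% in WT heads and 19.2% in KO epiblasts, called higher against both other files. Their downstream shores, of Sgk1 and then Cnn2, had 83.3% and 56.9% in KO heads against 39.3% and 21.9% in KO epiblasts.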

How the data were processed

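Methylation libraries were made with STEM-seq, a bisulfite method for few cells, and RNA libraries with Smart-seq2, per the labels' protocols. The deposited methylation files hold whole-number counts of methylated and unmethylated read calls per CpG and strand, with the replicates of a group pooled by the authors. Trim Galore and BS-Seeker2 are among the tools and mm9 is the build, per the submitters' processing notes. The deposited RNA tables hold FPKM, with TopHat2 2.0.11 and Cufflinks 2.0.2 among the tools per the submitters' processing notes, and 1 merged column per group in the Kmt2b table. That table also has 2 columns that the sample labels do not cover, and these were left out. Tables were normalized separately, so the 2 other WT heads show spread only. Replicates carry no statement of separate animals.

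Calls of both strands were summed per 1 kb tile. Tiles were compared with a two-sided Fisher's exact test and Benjamini-Hochberg adjustment (Python 3.11.15, numpy 2.4.6, scipy 1.17.1). The code was run on simulated data with independent calls. Such data hold no dependence within reads and no spread between samples, so that run could not show their effect on the p-values. Promoters of the RefSeq table (GRCm38.p6) were placed on the mm9 files by exact CpG spacing. Of 31396 promoters, 17846 had 6 or more CpGs and 17622 were placed once and in order with a neighbour. RNA was compared as log2(FPKM + 1) where either column had at least 1 FPKM, with no p-value. Named shores are, per comparison and direction, the 10 with the largest called difference, at least 40 calls in both files and the same direction on both strands with 5 or more calls each, and up to 4 per gene list by the size of the KO minus WT head difference. Members, lists and rules were chosen with earlier results of these data known. Intervals of levels are 95% Wilson intervals and those of differences are 95% normal-approximation intervals. Both cover counting error only. Alternatives were other minimums, shore definitions, strands and thresholds. One head marker is not reported here.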

Additional observations from a re-analysis of the deposited data

How the results depend on the processing

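No paired analysis was possible because the authors' files pool the replicates, and leaving out a replicate was not possible for the same reason. The counts of 89 and 37 shores higher and lower in KO than in WT heads, and of 258 and 398 in KO heads than in KO epiblasts, became 42 / 18 / 105 / 139 with a minimum of 40 calls, 36 / 21 / 118 / 167 with the first strand alone, 45 / 24 / 109 / 173 with the second strand alone, 0 / 0 / 3 / 4 with CpGs at least 150 bases apart. Each of these settings leaves fewer calls or fewer shores (2226 to 9376 of 10846). The settings with 1 strand alone and with spaced CpGs used a minimum of 10 calls. With a 30-point difference 51 shores were higher in KO than in WT heads, with dense tiles from 40 CpGs 56 were lower, and with a reach of 1 tile 148 were higher in KO heads than in KO epiblasts. The other settings kept each count within 1.5 times. The level of 46.1% in KO heads, 45.1% in WT heads and 48.1% in KO epiblasts became 51.0, 50.3, 52.9% with a minimum of 10 calls, 39.5, 38.3, 41.0% with a minimum of 40 calls, 50.2, 49.6, 51.9% with dense tiles from 40 CpGs, 35.2, 33.1, 38.5% with a reach of 1 tile, 45.9, 44.8, 47.9% with 10 to 29 CpGs, 45.5, 44.8, 47.9% with a grid shifted by 500 bases, 46.5, 45.6, 48.3% with the first strand alone, 46.8, 46.0, 49.4% with the second strand alone, 54.7, 54.0, 55.1% with CpGs at least 150 bases apart, 45.9, 44.9, 48.0% with the minimum also set for the dense tile, 53.9, 53.3, 55.2% with no minimum. In every one of these settings KO heads lay above WT heads and below KO epiblasts. The difference of 2.05 points of KO heads minus WT heads beside the dense tile became 1.55 with a minimum of 10 calls, 1.41 with dense tiles from 40 CpGs, 1.30 with a grid shifted by 500 bases, 1.73 with the second strand alone, 1.45 with no minimum. The difference of -3.33 points of KO heads minus KO epiblasts beside the dense tile became -2.72 with a minimum of 40 calls, -2.92 with dense tiles from 40 CpGs, -3.07 with the first strand alone, -3.71 with the second strand alone, -1.21 with CpGs at least 150 bases apart, -2.92 with no minimum. The difference of -0.68 points of KO heads minus WT heads at 2 tiles became -0.22 with a grid shifted by 500 bases, -1.11 with the first strand alone. The difference of 1.39 points of KO heads minus KO epiblasts at 2 tiles became 2.42 with a minimum of 40 calls, 0.72 with a grid shifted by 500 bases, 0.88 with the second strand alone, 0.47 with CpGs at least 150 bases apart. The sign of these differences was the same in every setting run. The cause of the other changes was not tested. With a pseudocount of 0.1 and of 5, the 1 gene 2-fold lower beside shores higher in KO than in WT heads became 3 and 0. Against KO epiblasts, the 5 higher genes beside higher shores became 9 and 1, the 14 lower ones 18 and 9, the 19 higher genes beside lower shores 30 and 11, and the 9 lower ones 17 and 2. Leaving out tiles over 20 calls per CpG and using no minimum on calls were chosen after seeing the data. At 31 to 48 calls per shore, differences of 20 points often could not be called.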
